A study of Homo sapiens with 13 samples.

Results

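The regions described here are stretches of the Nalm6 genome at which a TCF7L2 peak was listed in every prednisolone library and in no control library, and at which LEF1 was also listed after prednisolone. They are called members below, and they were chosen by the presence of TCF7L2 peaks in the 6 TCF7L2 lists and of LEF1 peaks in the 3 prednisolone LEF1 lists. All peaks of the 6 TCF7L2 lists that overlapped by at least 1 bp were merged into 1378081 regions. Of these, 1742 were gained, meaning that they had a peak in all 3 prednisolone TCF7L2 lists and in none of the 3 control lists. A peak of at least 1 of the 3 prednisolone LEF1 lists overlapped 760 of the gained regions, and these 760 are the members. They were 0.0551% of all merged regions.

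CUT&RUN uses an antibody to bring a nuclease to the chromatin that a protein occupies, and the DNA that is cut free is sequenced. The cells were Nalm6, a long-established line from a human B-lineage acute lymphoblastic leukaemia, grown in medium with charcoal-stripped serum, a serum from which most steroids are removed. Treated cells received 5 µM of the synthetic glucocorticoid prednisolone for 24 h, and control cells received none; the labels give the controls as untreated in one place and as vehicle in another. Rabbit monoclonal antibodies against LEF1 or TCF7L2 were used with 3 replicates for each antibody and treatment, from independent experiments on this 1 cell line. The title of the series concerns antagonism between glucocorticoids and the canonical Wnt pathway, and the question here is where the Wnt-pathway factor TCF7L2 was listed only after the glucocorticoid, and what its relative LEF1 did at the same places.

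LEF1 and TCF7L2 are members of the TCF/LEF family, DNA-binding proteins with an HMG box that recognise the same short core motif. Without a Wnt signal they can hold target genes down together with TLE corepressors, and when β-catenin accumulates it binds them and turns the same targets on. LEF1 has roles in early B-cell and T-cell development and is often expressed in lymphoid leukaemias, while TCF7L2 is best known from the gut epithelium. Glucocorticoids act through the glucocorticoid receptor and kill many lymphoid leukaemia cells.

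The lists held between 128863 and 395786 peaks. They ended at a p-value of 0.05 and not at a q-value, so that they include many weak calls. The fold and the −log10 p-value of a peak are the authors' own values, against a background that the sources used here do not name. They are given to describe a peak within its list. The shortest list of each antibody was prednisolone replicate 3, with 144091 TCF7L2 and 128863 LEF1 peaks, and the longest was prednisolone replicate 2, with 395786 and 389025. The shortest peak in a list divided the libraries of both antibodies into the same 2 sets. The first set held control 1 and prednisolone 2 and 3, with shortest peaks of 164 to 165 bp for LEF1 and 193 to 201 bp for TCF7L2. The second held control 2 and 3 and prednisolone 1, with 187 to 197 bp and 158 to 167 bp.

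TCF7L2 peaks at the members were mostly weak. These are the values that chose the members, and no test was made on them. The median fold was 2.54 in prednisolone replicate 1, 2.25 in replicate 2 and 2.67 in replicate 3, against 2.24, 2.25 and 2.46 over the whole lists and 3.17, 2.79 and 2.69 at the 9394 regions with a TCF7L2 peak in all 6 lists. In the weakest of the 3 lists the −log10 p-value of a member had a median of 1.78 and reached 8.43 at most. In 119 members the q-value was 1 in all 3 prednisolone lists, and in 3 members the −log10 q-value was at least 2 in all 3. Members among the 20000 top peaks by −log10 p-value in all 3 prednisolone lists numbered 24.

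Many members stood near the limit of the lists. The weakest members had a −log10 p-value of 1.31 in TCF7L2 prednisolone replicate 1 on chromosome 20 from 57483132 to 57483860 (GRCh37/hg19), and of 1.32 in replicate 3 on chromosome 17 from 2339474 to 2340090. The regions that missed membership most narrowly had a single control peak with a −log10 p-value of 1.303: chr17:80821818-80823023 and chr21:10765465-10766251. Both had a prednisolone LEF1 peak, with a best −log10 p-value of 47.3 and 3.27. With a peak in all 3 prednisolone lists and exactly 1 control list there were 2500 regions, of which 1510 had a prednisolone LEF1 peak. In both directions the choice took a small share of the merged regions. Of the merged regions 0.126% were gained and 0.439% were lost, that is, listed in all 3 control TCF7L2 lists and in no prednisolone list.

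Whether a gain seen in 2 replicates was found again in the third was measured by choosing regions without each replicate number in turn. On full lists the direction turned with the scaling for list length. Of the regions gained in replicates 2 and 3 of both treatments, 19.4% had a peak in prednisolone replicate 1 and 24.0% in control replicate 1. With replicate 2 left out these shares were 24.0% and 19.7%, and with replicate 3 left out 9.92% and 17.2%. The left-out prednisolone library was the higher one in 1 of 3 cases, and the mean difference, prednisolone minus control, was −2.48 ± 6.06 percentage points (SD, n = 3). For the subset with a prednisolone LEF1 peak the mean difference was −3.18 points. List lengths differ, and all regions merged from the same 4 libraries had shares of 12.5% and 16.1%, 15.4% and 13.3%, and 6.34% and 12.9% in the left-out libraries. Relative to all regions, the share at gained regions was 1.55, 1.56 and 1.56 times as high in the left-out prednisolone libraries and 1.49, 1.48 and 1.33 times in the left-out controls. On this scale prednisolone was the higher one in 3 of 3 cases, with a mean log2 difference of 0.12 ± 0.097 (SD, n = 3). For the subset with LEF1 the ratios were 2.28 against 2.09, 2.08 against 2.13 and 2.74 against 1.98, higher after prednisolone in 2 of 3 cases. The sets by shortest peak run through these values: with replicate 1 left out, both prednisolone libraries that chose the regions and the left-out control belong to the first set, and both choosing controls and the left-out prednisolone library to the second. In that case set and treatment cannot be told apart, with full lists or shorter ones.

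Among strong peaks the gained regions were found again more often in the left-out prednisolone library than in the left-out control. When each TCF7L2 list was held to its 20000 top peaks, 43.5%, 42.7% and 41.3% of the gained regions had a peak in the left-out prednisolone library, and 19.0%, 23.9% and 28.1% in the left-out control library. Prednisolone was the higher one in 3 of 3 cases, with a mean difference of 18.8 ± 5.67 points (SD, n = 3), although all regions favoured control (15.7% against 16.6%, 11.7% against 18.7% and 11.2% against 19.4%). With a prednisolone LEF1 peak also required, the mean difference was 15.7 points. Regions lost in the choosing libraries were found again in the left-out control library at 48.6%, 54.0% and 57.9%. In the left-out prednisolone library these shares were 39.3%, 14.2% and 17.5%, a mean difference of −29.8 points. On full lists that difference was −7.69 points, with control the higher one in 3 of 3 cases before scaling for list length. The 3 values of each comparison share libraries and were not tested. Under this setting 224 regions met the rule for members in place of 760.

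**Figure D1:**
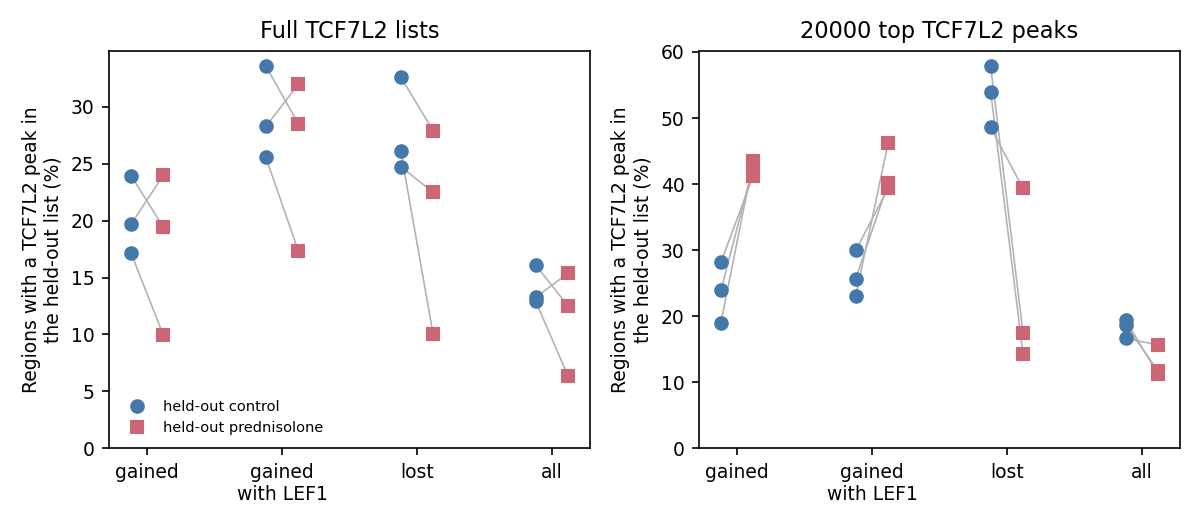
Share of regions (%) with a TCF7L2 peak in the control (circles) and prednisolone (squares) library of the replicate number that was left out when the regions were chosen, for full lists (left) and lists of 20000 top peaks (right); grey lines join the libraries of a left-out number. Gained regions lie higher in the left-out prednisolone library in 1 of 3 cases with full lists, whose lengths differ and where 3 of 3 are higher after division by the share at all regions, and in 3 of 3 with the top peaks of lists held to 1 length.

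At the members, LEF1 was in most cases already listed in control cells. A control LEF1 peak overlapped 541 of 760 members, or 71.2%, and 271, or 35.7%, had a peak in all 3 control LEF1 lists. Over all merged regions these shares were 20.6% and 6.70%, and at all gained regions 39.2% and 16.0%. The members were chosen for a prednisolone LEF1 peak; the lost regions with such a peak had a control LEF1 peak in 89.2% and all 3 in 67.0%. By library, 413, 389 and 404 members had a peak in control LEF1 replicates 1, 2 and 3, and 515, 657 and 377 had one in the prednisolone replicates. The prednisolone counts spread around the control counts, with the longest list highest and the shortest list lowest. LEF1 peaks stood in all 6 LEF1 lists at 201 members, or 26.4%, against 4.58% of all merged regions, 11.5% of gained ones and 55.2% of lost ones with prednisolone LEF1.

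The number of LEF1 lists with a peak differed widely between members. A peak in a single prednisolone LEF1 list had qualified 298 members, and for 215 of them it was replicate 2, the longest LEF1 list. Of those 298, 153 had no control LEF1 peak either, so that their LEF1 occupancy rests on 1 library of 6. A peak in all 3 prednisolone LEF1 lists was found at 327 members, or 43.0%, among them the 201 listed in all 6 LEF1 lists. Over all merged regions this share was 5.80%, at gained regions 18.8% and at lost regions with prednisolone LEF1 59.8%. All 3 control lists and a single prednisolone list had a peak at 23 members.

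**Figure D2:**
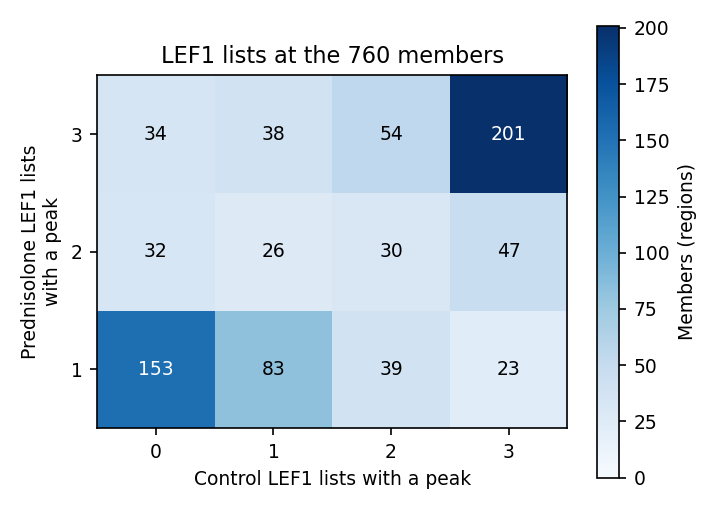
Number of members by how many of the 3 control LEF1 lists (horizontal) and of the 3 prednisolone LEF1 lists (vertical) held a peak; the members were chosen to have at least 1 of the latter. The largest cells are the 201 members listed in all 6 LEF1 lists and the 153 listed in a single prednisolone list.

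Within the members, LEF1 in all 3 prednisolone lists was more frequent where the TCF7L2 ranks were better. When the members were ordered by the worst of their 3 TCF7L2 ranks and divided into 4 groups of 190, all 3 prednisolone LEF1 lists had a peak at 58.4% of the strongest group, and at 42.6%, 36.8% and 34.2% of the next groups. The share with no control LEF1 peak did not follow the same course (26.3%, 28.4%, 27.9% and 32.6%). The strongest group was also the widest, with a median of 812 bp against 661 bp in the weakest. Width was not separated from strength in this ordering. The lists that chose the members also gave both quantities, and no test was made. List length enters too: TCF7L2 prednisolone replicate 3 had 144091 peaks. Worst ranks from 212367 on, in the weaker groups, could therefore come only from replicates 1 and 2.

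The LEF1 condition kept 43.6% of the gained regions (95% Clopper-Pearson interval 41.3% to 46.0%, for counting error only). It would have kept 21.8% of all merged TCF7L2 regions, 64.3% of the lost regions (63.1% to 65.5%) and 94.3% of the regions in all 6 TCF7L2 lists. Wide regions meet other peaks more often, and the members' median width was 730 bp against 304 bp for all merged regions. Among regions of 500 to 1000 bp the share was 42.6% for gained, 34.6% for all, 62.3% for lost and 90.6% for those in all 6 lists. In each of the 6 LEF1 libraries the share at gained regions of any width was below that at lost regions, with ratios of 0.479 to 0.670; this difference between the kinds of region was not tested.

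The share was higher where more TCF7L2 replicates had a peak. Among regions of 500 to 1000 bp listed only after prednisolone, at least 1 prednisolone LEF1 list had a peak at 20.5% of those in 1 TCF7L2 list, 28.3% of those in 2 and 42.6% of those in all 3. The control LEF1 lists gave nearly the same course, 17.3%, 24.3% and 39.6%. Among regions listed only in control cells the shares for prednisolone LEF1 were 26.0%, 39.5% and 62.3%.

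**Figure D3:**
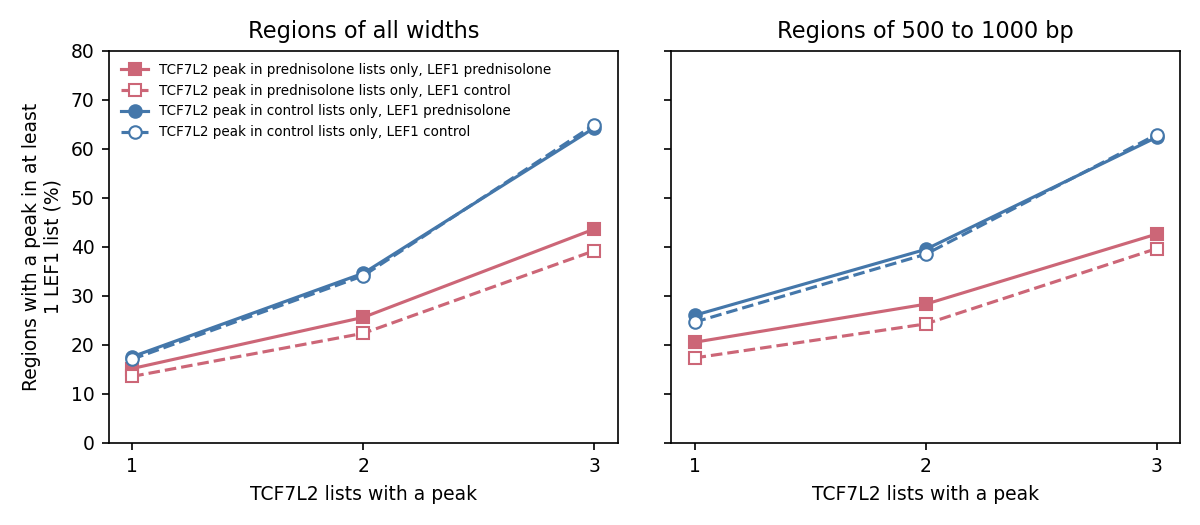
Share of regions (%) with a peak in at least 1 prednisolone (filled, solid) or control (open, dashed) LEF1 list, by the number of TCF7L2 lists with a peak, for regions with TCF7L2 peaks in prednisolone lists only (squares) or control lists only (circles), at all widths (left) and at 500 to 1000 bp (right). The shares rise with the number of lists in each case, and at 3 lists the control-only regions lie above the prednisolone-only regions.

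LEF1 before and after prednisolone was then compared at all 1742 gained regions, for whose choice the LEF1 lists were not used. The choice did use treatment in the TCF7L2 lists. Features shared by the prednisolone libraries of both antibodies are therefore not separated from LEF1 here. With full LEF1 lists the share of gained regions with a LEF1 peak was 27.6%, 25.03% and 27.4% in the control libraries and 29.6%, 37.7% and 21.6% after prednisolone. The prednisolone libraries lay on both sides of the controls. The means were 26.7% ± 1.41 and 29.6% ± 8.04 (SD, n = 3 each), and the difference of 2.99 points was within the replicate spread (exact permutation test, two-sided, p = 0.7; 0.7 after Benjamini-Hochberg adjustment over 3 tests). In the first set of libraries the difference was 2.12 points and in the second 3.36. Without LEF1 prednisolone replicate 2 the difference was −1.05 points, and without replicate 3 it was 6.98.

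The share in each LEF1 list was then divided by the share of the same list at all merged regions. The share at gained regions was 2.12, 2.15 and 1.98 times that at all regions in the control libraries, and 2.31, 2.22 and 2.82 times after prednisolone. All 3 prednisolone values were above all 3 control values. This ratio still moved with the length of the list: the shortest, LEF1 prednisolone replicate 3, gave the highest ratio both here and at lost regions, where it was 5.74 against 3.31 in the longest list, prednisolone replicate 2. The log2 difference was 0.23 (exact permutation test, p = 0.1, the smallest that 3 libraries against 3 allow, and 0.3 adjusted), with 0.24 and 0.16 within the sets. Among regions of 500 to 1000 bp the difference was 0.13 and the groups overlapped (exact permutation test, p = 0.2), and with regions from the 20000 top TCF7L2 peaks it was 0.080 (p = 0.4 by the same exact test). Relative to the lost regions, the log2 difference was 0.21 (exact permutation test, p = 0.3, and 0.45 adjusted), with 0.19 and 0.22 within the sets.

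A clearer difference stood among the strong LEF1 peaks. With each LEF1 list held to its 20000 top peaks, so that all lists were of equal length, 2.70%, 2.53% and 2.93% of the gained regions had a LEF1 peak in the control libraries and 7.46%, 7.29% and 7.12% after prednisolone. The 3 replicates of a treatment lay close together, and the groups did not overlap. The means were 2.72% ± 0.202 and 7.29% ± 0.172 (SD, n = 3 each), a ratio of 2.68 (exact permutation p = 0.1, which is the lowest value available to 3 against 3 libraries). The difference of 4.57 points was 4.51 in the first set of libraries and 4.74 in the second. The ratio was 2.75 among gained regions of 500 to 1000 bp, and 2.21 when the regions also came from the 20000 top TCF7L2 peaks, where the means were 50.9% and 23.1% of 286 regions. Without each TCF7L2 library in turn it was 1.81 to 2.22, while the difference ran from 0.802 points, without TCF7L2 prednisolone replicate 3, to 5.42 points. At all merged TCF7L2 regions the means were 2.14% and 2.10%, which differed by less than the replicate spread. At regions in all 6 TCF7L2 lists the shares were 49.1%, 50.2% and 50.5% in control and 55.0%, 52.9% and 54.0% after prednisolone. Every prednisolone library lay above every control there too, by a smaller ratio, and this was not tested. Relative to all regions the log2 difference at gained regions was 1.45. With LEF1 peaks restricted to a −log10 q-value of 5 or more it was 1.18, and both had an exact permutation p = 0.1.

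The lost TCF7L2 regions went the other way. Among them 19.5%, 20.2% and 21.0% had a top LEF1 peak in control cells and 16.6%, 16.2% and 15.5% after prednisolone, a difference of −4.14 points (exact permutation test, p = 0.1). The log2 difference at gained regions relative to that at lost regions was 1.76 (exact permutation test, p = 0.1). For strong LEF1 peaks every prednisolone library thus lay above every control at gained regions and below every control at lost regions. The exact permutation p-values of 0.1 were the smallest of the design and were not adjusted.

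**Figure D4:**
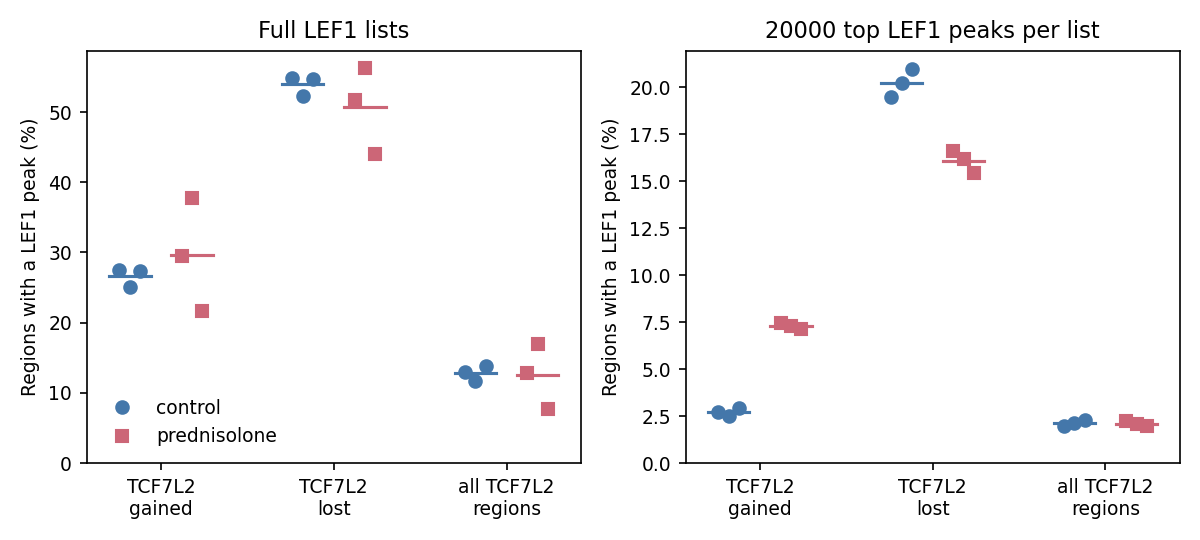
Share of TCF7L2 regions (%) with a LEF1 peak in each control (circles) and prednisolone (squares) LEF1 library, for gained, lost and all merged TCF7L2 regions; horizontal lines are means of 3 libraries, and the vertical scales differ. With full lists (left) the treatments overlap at gained regions, and with 20000 top peaks per list (right) prednisolone lies at 7.12% to 7.46% and control at 2.53% to 2.93%.

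By region, 45 members had a top LEF1 peak in all 3 prednisolone libraries and in no control library, and no gained region had the opposite pattern. Over all merged regions these patterns held for 0.112% and 0.0829%. The 45 were 5.92% of the members and 2.58% of the gained regions, and the LEF1 condition on the members favours the first direction. At lost regions the counts were 21 and 85. At regions in all 6 TCF7L2 lists they were 193 and 56, or 2.05% and 0.596%, so the first direction was also the more frequent there. Most of the 45 had weaker LEF1 peaks in control cells: 22 had a peak in all 3 full control LEF1 lists, 15 in 1 or 2 of them and 8 in none. They lay on 17 chromosomes, and 26 of them were among the 190 members strongest for TCF7L2.

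On full lists, 34 members had LEF1 in all 3 prednisolone lists and in no control list, against 0.138% of all merged regions. Among the 1742 gained regions these 34, or 1.95%, compare with 8, or 0.459%, that had LEF1 in all 3 control lists and no prednisolone list; over all regions the latter pattern was the more frequent, at 0.291%. At regions in all 6 TCF7L2 lists the same patterns held for 0.383% and 0.106%. Of the 34, 8 were among the 20000 top LEF1 peaks in all 3 prednisolone lists.

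The 12 members with the best TCF7L2 ranks are described next. The first lay on chromosome 2 from 26159407 to 26160634 (hg19). TCF7L2 folds there were 5.97, 3.87 and 3.88 after prednisolone, at ranks 1059, 1911 and 1881. LEF1 folds were 13.1, 10.4 and 17.1 after prednisolone and 4.18, 5.21 and 3.86 in control cells. All 3 LEF1 ranks after prednisolone were better than 1000, and the best control rank was 13103. A second member began 213 bp further on, from 26160848 to 26161674, and in prednisolone replicates 1 and 2 the same LEF1 peak covered both; no control list of either factor had a peak at this second stretch.

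The next in order lay on chromosome 10 from 134231282 to 134232735. Its TCF7L2 folds were 5.36, 4.34 and 4.57. LEF1 folds were 8.57, 9.61 and 11.8 after prednisolone, and 2.92 and 2.11 in control replicates 1 and 3, with no peak in control replicate 2. A member of the same kind on chromosome 2 from 233174363 to 233175569 had TCF7L2 folds of 3.93, 3.45 and 4.37. LEF1 folds there were 10.6, 8.56 and 10.3 after prednisolone and 4.30, 7.03 and 6.55 in control cells. At these 3 members LEF1 was listed in at least 2 control libraries, and every prednisolone fold was above every control fold. All 3 were among the 5 of the 12 with the best prednisolone LEF1 ranks, which favours high prednisolone folds. Folds describe a peak within its own list, and this comparison between libraries was not tested.

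At 3 of the 12 both factors were listed in all 3 prednisolone libraries and in no control library. The member on chromosome 4 from 15328501 to 15330213 had TCF7L2 folds of 5.90, 3.76 and 5.17 and LEF1 folds of 10.1, 18.7 and 8.85. The member on chromosome 8 from 99414636 to 99415613 had the highest mean TCF7L2 fold of all members, 5.62, from 5.89, 7.45 and 3.53. Its LEF1 folds were 13.1, 16.5 and 13.8. The member on chromosome 1 from 18367579 to 18368382 had TCF7L2 folds of 3.91, 3.30 and 3.97 and LEF1 folds of 7.35, 8.68 and 6.85. None of the 6 control lists had a peak at any of them.

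Other strong members showed no such LEF1 pattern. On chromosome 9 from 69710817 to 69711253 the TCF7L2 folds were 1.29, 1.28 and 1.28, and the 6 LEF1 folds lay between 1.13 and 1.34. Every summit in the 9 lists with a peak there fell on base 197 of the region, counted from its start. On chromosome 21 from 14339164 to 14340296 the TCF7L2 folds were 3.17, 3.55 and 2.39, and the LEF1 folds were 1.63, 1.66 and 1.80 after prednisolone and 2.27, 2.59 and 1.99 in control cells. This member lay 342 bp from the longest stretch of its chromosome without a peak in any of the 12 lists, and the one on chromosome 9 lay within 5 Mb of such a stretch. The member on chromosome 8 from 983850 to 986176 had TCF7L2 folds of 3.56, 2.95 and 3.41 and a LEF1 peak in prednisolone replicate 2 only, with a fold of 2.02.

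The other 3 of the 12 had LEF1 peaks in both treatments. On chromosome 3 from 177441936 to 177442763 the LEF1 folds were 6.37, 4.29 and 4.66 after prednisolone and 3.11, 4.35 and 2.98 in control cells, so that the groups overlapped. This member was 828 bp long, and the LEF1 summits of control replicates 1 and 2 and prednisolone replicate 2 lay outside it. On chromosome 22 from 23579092 to 23579948 they were 4.35, 5.02 and 4.54 against 2.08, 4.01 and 2.43. On chromosome 8 from 36303161 to 36303709 they were 8.22, 5.88 and 18.6 against 3.06 in control replicate 1 and no peak in control replicates 2 and 3. The summits of the LEF1 peaks in prednisolone replicates 1 and 3 lay outside that member, which was 549 bp long.

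**Figure D5:**
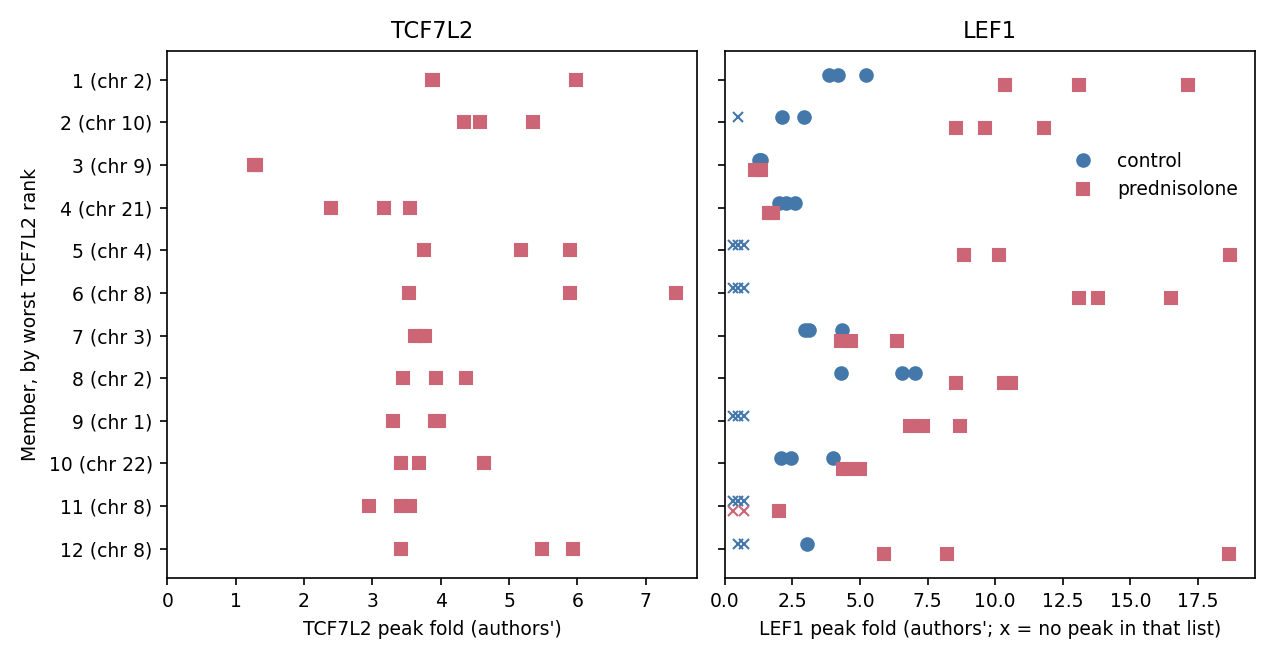
The authors' peak folds for TCF7L2 (left, 3 prednisolone libraries; no control library had a peak) and LEF1 (right, control as circles and prednisolone as squares, crosses near 0 for lists without a peak) at the 12 members with the best worst TCF7L2 rank. LEF1 was listed after prednisolone only at the members numbered 5, 6, 9 and 11, the last with a peak in a single list.

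Of the members listed for both factors after prednisolone only, 5 more stood among the 8 with the best LEF1 ranks. On chromosome 20 from 34199569 to 34200044 the LEF1 folds were 11.8, 9.42 and 9.09 and the TCF7L2 folds 7.24, 2.76 and 2.86, with replicate 1 apart from the others. On the same chromosome from 58635389 to 58636442 they were 6.91, 6.01 and 5.87 for LEF1 and 3.40, 3.17 and 2.62 for TCF7L2. On chromosome 17 from 47480724 to 47481726 they were 4.98, 5.82 and 4.96, and 4.11, 2.54 and 2.68. On chromosome 5 from 54209088 to 54209564 the LEF1 folds of 15.2, 20.8 and 19.2 were among the highest at any member, but the LEF1 summits lay 2055 to 2160 bp before the start of the member, at which TCF7L2 was weak (folds of 1.86, 2.64 and 3.29). The fifth was the second stretch on chromosome 2 described above.

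Members were neither narrow nor sharply centred. Their widths ran from 252 bp, on chromosome X from 47221205 to 47221456, to 2531 bp, on chromosome 11 from 50779853 to 50782383, with quartiles of 559 and 941 bp. The 3 TCF7L2 summits within a member spanned a median of 311 bp. At widths of 500 to 1000 bp this span was 321 bp for members, 343 bp for gained regions without LEF1, 282 bp for lost regions with LEF1 (measured in the control lists) and 197 bp for regions in all 6 lists. The 3 summits lay within 200 bp of each other in 24.5% of these members, and in 51.5% of the regions in all 6 lists.

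LEF1 peaks over the members were longer than usual for their lists, with medians of 652, 520 and 655 bp in the prednisolone lists against 393, 306 and 398 bp over the whole lists. In the control lists the medians were 474, 545 and 607 bp against 312, 401 and 409 bp. Long peaks meet a region more often, and these lengths were not measured at other kinds of region. The prednisolone peaks covered a median of 63.3%, 52.1% and 65.7% of the member. The distance between the TCF7L2 and LEF1 summits of the same replicate number had medians of 221, 234 and 204 bp, and 26.6%, 24.7% and 28.4% were within 100 bp. At lost regions with LEF1, between control TCF7L2 and prednisolone LEF1 summits, these medians were 199, 179 and 136 bp. Between control TCF7L2 and control LEF1 summits there they were 182, 185 and 193 bp. At regions in all 6 TCF7L2 lists the prednisolone libraries gave 201, 210 and 204 bp, close to the members. LEF1 peaks of at least 2 kb lay over 47, 34 and 24 members in the prednisolone lists and over 14, 16 and 22 in the control lists. The LEF1 condition on the members favours the prednisolone lists in this count. Over all gained regions, which were chosen without LEF1, the counts were 47, 34 and 24 against 14, 17 and 22, and the whole lists held 6509, 5302 and 4034 such peaks after prednisolone and 4327, 5467 and 7435 in control cells.

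Control TCF7L2 peaks were often close by. The median distance from a member to the nearest peak of any control TCF7L2 list was 641 bp, and 490 members, or 64.5%, had such a peak within 1 kb. For gained regions without LEF1 the share was 56.1%, and for every region listed in prednisolone lists only it was 51.7%.

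Members were spread over all chromosomes. Chromosome 2 held the most, 75, or 9.87% against 8.72% of all merged regions. Chromosome 20 held 4.21% of the members against 2.38% of all regions and 3.19% of the regions in all 6 lists, and chromosome 4 held 4.61% against 6.28%. Within 100 kb of another member lay 109 members, in 51 groups. The largest group held 4 members on chromosome 7 from 57939486 to 58053453. The longest peak-free stretch of that chromosome began just beyond it, at 58054325. Such stretches were uneven, from 55449 bp on chromosome 14 to 30001640 bp on chromosome Y. Within 5 Mb of the longest peak-free stretch of their chromosome, 83 members, or 10.9%, were found, against 7.20% of all merged regions, 14.3% of the gained regions without LEF1 and 6.89% of the lost regions with LEF1. The part of such regions in the results was measured by leaving out all gained regions near these stretches, with or without LEF1. This left 1519 gained regions, 677 of them members, and the share with a prednisolone LEF1 peak was then 44.6%. The difference in LEF1 share at gained regions between treatments became 4.34 points in place of 2.99 (exact permutation test, p = 0.5). Its log2 form relative to all regions became 0.29 (exact permutation p = 0.1), and that relative to lost regions 0.28 in place of 0.21, at the smallest exact permutation p of 0.1 in place of 0.3. With the 20000 top LEF1 peaks the difference was 5.05 points in place of 4.57.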

How the data were processed

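Each of 12 libraries had its own list of CUT&RUN peaks, called with MACS2 on hg19 (GRCh37) per the submitters' processing notes; the version, aligner, control library and filters are not given in the sources used here. The lists deposited by the authors hold for each peak a fold ratio, −log10 p-value and −log10 q-value, and MACS2's score, which was not used. The IgG sample, 1 of 13, was not analysed here. Read depth is unknown, and list lengths stand in for it. The number of replicates limits precision.

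Peaks were merged and overlapped with Python 3.11.15, numpy 2.4.6 and scipy 1.17.1, checked on simulated lists. Ranks follow −log10 p-value, then fold, then position. LEF1 shares were compared by exact permutation over the 6 LEF1 libraries. Named regions were the 12 members with the best worst TCF7L2 rank, the 8 best by LEF1 rank among those listed for LEF1 in all 3 prednisolone lists only, the 5 of the 12 with the best LEF1 ranks, the longest and shortest members and the 5 with the highest mean TCF7L2 fold. Members, lists and rules were chosen with earlier results of these data known. An hg19 genome and gene annotation were not used here. Regions are therefore given without genes or sequences, and the planned motif and gene counts were not made.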

Additional observations from a re-analysis of the deposited data

Results flagged for a closer look

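The share of TCF7L2 regions with a LEF1 peak among the 20000 top peaks moved in opposite directions at gained and lost TCF7L2 regions. At gained regions it was 4.57 percentage points higher after prednisolone, with all 3 prednisolone libraries above all 3 controls. At lost regions the difference was −4.14 points, with all 3 prednisolone libraries below all 3 controls. The log2 ratio of both shares differed between treatments by 1.76 (exact permutation test, p = 0.1, the smallest that 3 libraries against 3 allow).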

How the results depend on the processing

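The number of members depended strongly on the lists. It was 3 when prednisolone TCF7L2 peaks needed a −log10 q-value of at least 2, 372 when they needed a fold of at least 2, 224 with the 20000 top TCF7L2 peaks, 327 with LEF1 in all 3 prednisolone lists and 218 with LEF1 peaks of −log10 q-value 5 or more. Leaving out each library gave 545 to 5303 members, the highest without TCF7L2 prednisolone replicate 3 (2543 without replicate 2, 2888 without replicate 1; 1297, 1176 and 1254 without control replicates 1, 2 and 3). The share of gained regions with LEF1 was 38.0% with an overlap of at least 50% of the shorter interval, 18.75% with the stricter TCF7L2 q-value, 12.5% with the stricter LEF1 q-value, 10.6% with the 20000 and 2.76% with the 5000 top LEF1 peaks, and 25.8% to 49.5% without each library. The held-out difference of −2.48 points became 18.8 with the 20000 top TCF7L2 peaks; as a log2 ratio relative to all regions it was 0.12 on full lists and 1.38 with the top peaks. Over single libraries left out, the LEF1 share difference was −1.05 to 6.98 points, its log2 form relative to all regions 0.12 to 0.29, and relative to lost regions 0.056 to 0.32. Libraries that moved these by over 1.5 times were LEF1 prednisolone 2 (−1.05 points; 0.10 relative to lost) and 3 (6.98 points; 0.12 and 0.32), and TCF7L2 prednisolone 1 (1.22 points; 0.13 and 0.056), 2 (0.857 points; 0.13 and 0.10) and 3 (1.42 points; 0.15 and 0.14). Of 104 recomputed values 78 stayed within the allowed spread or kept their direction and call, 24 moved and 2 reversed. No LEF1 test could pass 0.05.

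Taking the replicate number as a block, the exact sign-flip test gave p = 0.75, 0.25 and 0.5 for the LEF1 differences of 2.99 points, 0.23 and 0.21, and could not go below 0.25. Same-numbered LEF1 libraries had correlations of −0.0133, 0.0297 and 0.0112 over regions. Control and prednisolone libraries of the same set by shortest peak also had low correlations, between −0.00878 and 0.0291. The measure therefore cannot show whether same-numbered libraries were paired. The settings with 5000 top LEF1 peaks, with 20000 top LEF1 peaks combined with another change, with regions of 500 to 1000 bp and away from peak-free stretches were chosen after seeing the data. The motif and gene alternatives were not run, as no hg19 sequence or annotation was used here.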
